A study of Mus musculus with 9 samples.

Results

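Expression of 9 serpin genes was followed in white gastrocnemius, the fast portion of a calf muscle, in mice without acid alpha-glucosidase (Gaa), which breaks down glycogen in lysosomes. The set comprised Serpinb1a, Serpinb6a, Serpinb6b, Serpinb8, Serpinb9, Serpina3n, Serpina3m, Serping1 and Serpinh1, which are 9 of the 43 genes with a Serpin symbol and 9 of all 18062 genes in the deposited table. They were picked by name, with their difference between knock-out and wild type already known, so that difference is described below. Calls given for the members come from the contrast that chose them and are no independent test of it. The 43 family members were all kept for comparison.

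The knock-out group held 5 libraries from Gaa knock-out mice aged 5 months. The wild-type group held 4 libraries, 2 from mice aged 5 months and 2 from mice aged 6 months, and the columns of the table do not tell the ages apart. Both genotypes are on a mixed background that the labels give as BL6/129j, and the knock-out allele disrupts exon 6 of Gaa with LOX P sites in the flanking introns. The colony was kept by brother-sister mating, and the labels name no agent. Loss of this enzyme in every tissue models Pompe disease, and whole muscle RNA pools the fibres with all other cells of the tissue. The labels number the libraries but name no mice, so p-values reflect the spread among these libraries, which may be technical. With no ages on the wild-type columns, age and genotype cannot be told apart for the older wild-type mice.

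Values are RPKM, reads scaled to transcript length and library size, which can be compared between genes because they are scaled to length. Gaa stood at 3.11 to 3.64 RPKM in knock-out muscle and at 46.0 to 56.0 in wild-type muscle. The RPKM of a library summed to 349239 to 374056 in knock-out muscle and 315337 to 327517 in wild-type muscle, and the median log2 difference over tested genes, knock-out minus wild type, was 0.12. Depth, estimated from the steps between low values, was 17.6 to 37.3 reads per RPKM and kilobase in knock-out muscle and 36.9 to 63.9 in wild-type muscle. Fast fibre markers summed to 88485 to 97357 RPKM in knock-out muscle and 82670 to 89271 in wild-type muscle, so both genotypes carried the markers of the labelled tissue.

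Serpins are proteins with a shared fold that expose a flexible reactive centre loop. A target protease cuts the loop, the loop inserts into the body of the serpin, and the protease is trapped in a covalent complex, so each inhibitor molecule works a single time. Clade B serpins lack a classical signal peptide and mostly act inside cells against leaked granule or lysosomal proteases, while clade A serpins are secreted and several belong to the acute-phase response of the liver. Serping1 encodes the C1 inhibitor of the complement and contact systems. Serpinh1 encodes Hsp47, a serpin of the endoplasmic reticulum that binds procollagen and does not inhibit proteases.

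The loop sets which protease a serpin can trap, so its coding sequence is shown for each of them. Each line gives 33 codons, 99 bases in all, of the RefSeq transcript in the GENCODE annotation of GRCm38, from 30 codons before the conserved proline-phenylalanine motif that closes the loop to the end of that motif. Capitals mark the hinge, 6 codons, mostly for small residues, that let the loop insert.
Serpinb1a: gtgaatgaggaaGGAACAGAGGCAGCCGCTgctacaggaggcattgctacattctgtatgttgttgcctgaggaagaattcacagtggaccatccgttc
Serpinb6a: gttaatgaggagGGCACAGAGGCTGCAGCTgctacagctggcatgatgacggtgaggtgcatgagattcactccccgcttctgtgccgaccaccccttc
Serpinb6b: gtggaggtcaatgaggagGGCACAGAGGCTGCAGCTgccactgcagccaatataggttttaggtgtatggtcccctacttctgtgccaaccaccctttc
Serpinb8: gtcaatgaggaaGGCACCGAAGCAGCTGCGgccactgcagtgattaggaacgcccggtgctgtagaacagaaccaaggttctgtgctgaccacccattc
Serpinb9: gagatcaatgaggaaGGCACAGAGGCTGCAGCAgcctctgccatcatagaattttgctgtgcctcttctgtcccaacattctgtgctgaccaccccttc
Serpina3n: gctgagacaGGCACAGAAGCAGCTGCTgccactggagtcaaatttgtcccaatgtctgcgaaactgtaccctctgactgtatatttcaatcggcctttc
Serpina3m: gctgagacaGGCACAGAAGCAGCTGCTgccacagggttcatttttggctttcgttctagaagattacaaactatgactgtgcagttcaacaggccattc
Serping1: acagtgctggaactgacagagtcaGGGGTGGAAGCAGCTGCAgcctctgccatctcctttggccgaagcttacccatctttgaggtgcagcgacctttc
Serpinh1: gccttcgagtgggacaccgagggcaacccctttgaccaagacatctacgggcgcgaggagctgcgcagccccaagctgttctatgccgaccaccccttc
The hinge was found in 8 of 9 loops, and in Serpinh1 it was absent. The hinge codons of Serpinb6a and Serpinb6b were the same, as were those of Serpina3n and Serpina3m, whose sequences part after the hinge. The encoded proteins run from 374 residues in Serpinb8 and Serpinb9 to 504 in Serping1.

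Of the 9 genes, 7 stood above the wild type in all 5 knock-out libraries, as did 30.9% of all tested genes. Serpinb6a was the most abundant serpin in both genotypes. Serpinb1a, the leukocyte elastase inhibitor that blocks neutrophil elastase, cathepsin G and proteinase 3, showed the widest gap. It was 18.1, 16.4, 20.0, 22.9 and 20.3 RPKM in knock-out libraries 1 to 5 and 1.12, 0.929, 0.975 and 1.16 RPKM in wild-type libraries 1 to 4. The lowest knock-out library was far above the highest wild-type library. The means were 19.5 ± 2.43 RPKM (SD, n = 5) and 1.05 ± 0.112 (SD, n = 4), an 18.7-fold ratio and a log2 difference of 4.09 (SE 0.10). Among 11032 tested genes Serpinb1a ranked 1920 by mean RPKM in knock-out muscle and 9464 in wild-type muscle. An estimated 677 to 1635 reads lay behind each knock-out value and 66.7 to 120 behind each wild-type value.

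Serpinb6a, a cytosolic inhibitor of cathepsin G and trypsin-like proteases, was 539, 491, 588, 554 and 517 RPKM in the knock-out libraries. It was 193, 199, 177 and 193 RPKM in the wild-type libraries. The groups did not overlap, and Serpinb6a was already abundant in wild-type muscle. The means were 538 ± 36.8 RPKM (SD, n = 5) and 190 ± 9.37 (SD, n = 4), a 2.83-fold ratio and a log2 difference of 1.50 (SE 0.06). It ranked 47 among tested genes in knock-out muscle and 141 in wild-type muscle.

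Its close paralog Serpinb6b was 1.07, 1.43, 1.50, 1.40 and 1.76 RPKM in knock-out muscle and 0.641, 0.546, 0.800 and 0.694 in wild-type muscle. The ranges were apart, with knock-out library 1 nearest to the wild type. The means were 1.43 ± 0.246 RPKM (SD, n = 5) and 0.670 ± 0.106 (SD, n = 4), a 2.14-fold ratio and a log2 difference of 0.99 (SE 0.14). The level of Serpinb6b was thus a small share of that of Serpinb6a in both genotypes.

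Serpinb8, whose human counterpart can inhibit the proprotein convertase furin, was 1.99, 2.06, 2.15, 2.30 and 1.89 RPKM in the knock-out. It was 0.476, 0.172, 0.206 and 0.221 RPKM in wild-type muscle, where library 1 stood above the other 3. Even that library was below every knock-out library. The means were 2.08 ± 0.157 RPKM (SD, n = 5) and 0.269 ± 0.139 (SD, n = 4), a 7.74-fold ratio and a log2 difference of 2.63 (SE 0.19). Only an estimated 19.3 to 62.4 reads lay behind each wild-type value, and its mean there was under the 0.5 RPKM minimum for testing, so it passed that minimum through the knock-out libraries.

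Serpinb9, the inhibitor of granzyme B that protects cytotoxic and antigen-presenting cells, was 1.97, 2.15, 2.12, 1.85 and 2.20 RPKM in the knock-out. It was 0.987, 0.878, 1.04 and 1.14 RPKM in wild-type muscle. The groups were apart and each was tight. The means were 2.06 ± 0.146 RPKM (SD, n = 5) and 1.01 ± 0.110 (SD, n = 4), a 2.04-fold ratio and a log2 difference of 0.96 (SE 0.10).

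Serpina3n, a secreted inhibitor of cathepsin G, leukocyte elastase and granzyme B and a mouse relative of human antichymotrypsin, was 26.9, 22.7, 24.8, 26.1 and 26 RPKM in the knock-out. It was 7.23, 6.20, 6.92 and 7.64 RPKM in wild-type muscle, with no overlap. The means were 25.3 ± 1.61 RPKM (SD, n = 5) and 7.0 ± 0.607 (SD, n = 4), a 3.62-fold ratio and a log2 difference of 1.84 (SE 0.07). Its relative Serpina3m was 1.47, 1.22, 1.53, 1.40 and 1.28 RPKM in knock-out muscle and 0.496, 0.288, 0.383 and 0.510 in wild-type muscle, again without overlap. The means of Serpina3m were 1.38 ± 0.129 RPKM (SD, n = 5) and 0.419 ± 0.104 (SD, n = 4), a 3.30-fold ratio and a log2 difference of 1.53 (SE 0.15). Like Serpinb8, Serpina3m had a wild-type mean under the minimum for testing.

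Reads of Serpina3m could be split with its copies. Of the 50-base windows of its transcript 19.1% also occurred in another gene, 257 of the 307 shared windows in Serpina3k, so its value is uncertain. The share was 6.90% for Serpina3n, 3.42% for Serpinb1a, 3.12% for Serpinb6b and 2.87% for Serpinb6a. It was below 1% for Serpinb8 and Serpinb9, and no window of Serping1 or Serpinh1 was shared.

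Serping1 and Serpinh1 overlapped between genotypes. Serping1 was 28.4, 33.3, 28.6, 32.8 and 28.7 RPKM in knock-out muscle and 22.8, 21.0, 24.5 and 29.5 in wild-type muscle. Wild-type library 4 lay above knock-out libraries 1, 3 and 5. The means were 30.4 ± 2.44 RPKM (SD, n = 5) and 24.5 ± 3.67 (SD, n = 4), a 1.24-fold ratio and a log2 difference of 0.32 (SE 0.09), which was 0.19 after each library was centred on its median gene.

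Serpinh1 was 15.5, 18.3, 16, 20.0 and 17.9 RPKM in knock-out muscle and 21.3, 21.8, 14.3 and 13 in wild-type muscle. The wild-type libraries split, with libraries 1 and 2 above every knock-out library and libraries 3 and 4 below every one. The means were 17.6 ± 1.82 RPKM (SD, n = 5) and 17.6 ± 4.56 (SD, n = 4), with a log2 difference of 0.03 (SE 0.15) whose sign turned after centring (-0.10).

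In the fit over all 11032 tested genes (limma, Benjamini-Hochberg adjusted p below 0.05), 8 of the 9 members were called, where 51.8% of all tested genes were called. All 8 were called higher in knock-out muscle and 0 lower, where 37.0% of all tested genes were called higher and 14.8% lower. Serpinh1 was the member not called. With libraries centred on the median gene 7 members were called higher, without Serping1, and 0 lower, where the shares over all genes were 25.1% and 25.0%. All knock-out values were above all wild-type values in 7 of 9 members and in 30.9% of tested genes. The median log2 difference was 1.50 over the members and 0.12 over all tested genes. These counts come from the contrast that chose the members and support nothing beyond that choice.

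**Figure D1:**
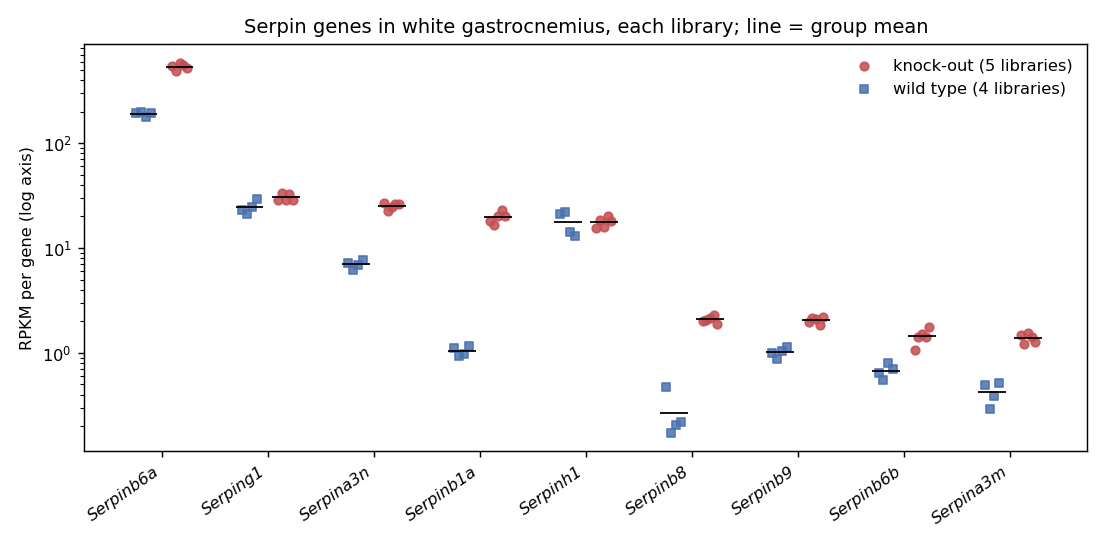
RPKM on a log axis for the 9 serpin genes, with 1 point per library, knock-out (n = 5) and wild type (n = 4), and a black line at each group mean. Serpinb1a shows the widest gap, 19.5 against 1.05 RPKM on average, while the points of Serping1 and Serpinh1 overlap.

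The order of the levels differed between genotypes. In the knock-out Serpinb6a was highest, then Serping1, then Serpina3n, Serpinb1a and Serpinh1, whose neighbouring ranges overlapped, then Serpinb8 and Serpinb9, which overlapped, and last Serpinb6b and Serpina3m, which overlapped too. In the wild type Serpinb6a was followed by Serping1 and Serpinh1, which overlapped, then by Serpina3n, then by Serpinb1a and Serpinb9, which overlapped, then by Serpinb6b, and last by Serpina3m and Serpinb8, which overlapped. Serpinb1a thus stood level with Serpinb9 in wild-type muscle and beside Serpina3n in the knock-out.

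Serpin RPKM was dominated by a single gene. Serpinb6a made up 73.2% to 77.2% of the summed RPKM of all serpins in knock-out muscle and 59.1% to 59.9% in wild-type muscle. The summed serpins reached 670 to 761 RPKM in knock-out muscle and 296 to 331 in wild-type muscle, or 1.80 to 2.16 and 0.907 to 1.02 per 1000 RPKM of the library. In bulk muscle, more cells of a type and more RNA per cell cannot be told apart.

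Serpinb6a was listed as 4 transcripts. The main one, NM_009254, was 394 ± 39.0 RPKM in the knock-out (SD, n = 5) and 126 ± 8.62 in wild-type muscle (SD, n = 4), a 3.12-fold ratio. NM_001164118 had a 2.48-fold ratio (96.8 ± 7.02 and 39.0 ± 2.95 RPKM) and NM_001164117 a 2.65-fold ratio (27.1 ± 4.19 and 10.2 ± 0.612 RPKM). The noncoding NR_028309 overlapped between the groups, at 19.9 ± 5.43 and 14.7 ± 1.74 RPKM. Its share of Serpinb6a RPKM was 2.55% to 4.94% in knock-out muscle and 7.14% to 8.74% in wild-type muscle, without overlap. The share of NM_009254 ran the other way, 69.6% to 75.7% in knock-out muscle and 63.8% to 69.4% in wild-type muscle. The sources used here do not say how the authors divided reads between transcripts.

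**Figure D2:**
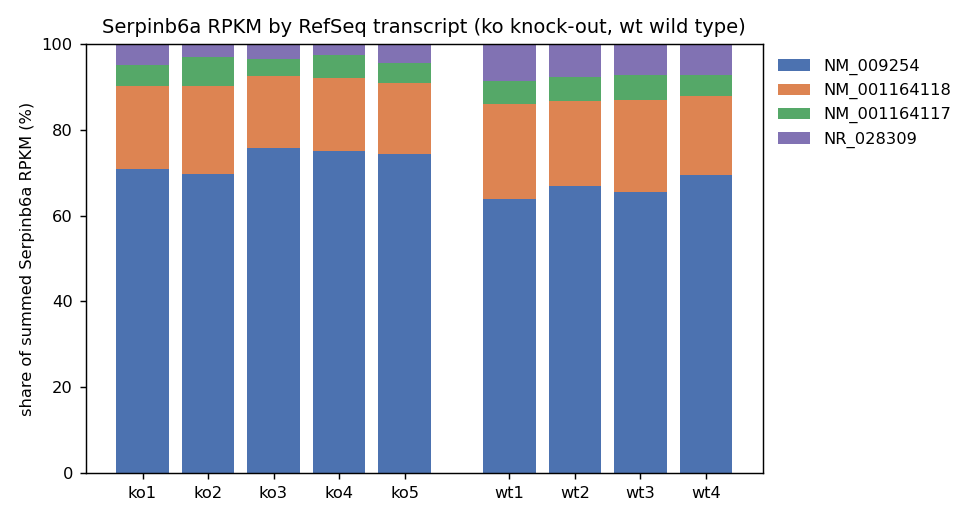
Stacked bars of the percent of summed Serpinb6a RPKM held by each of 4 RefSeq transcripts, 1 bar per library, knock-out (n = 5) and wild type (n = 4). The noncoding NR_028309 at the top of the bars takes at most 4.94% in knock-out muscle and at least 7.14% in wild-type muscle.

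Both transcripts of Serpinb8 were above the wild type in every knock-out library. NM_011459 was 1.38 ± 0.114 and 0.205 ± 0.0739 RPKM, and NM_001159748 was 0.698 ± 0.113 and 0.0633 ± 0.0803 RPKM (SD, n = 5 and 4). The 3 transcripts of Serpinh1 all overlapped between genotypes, and the main one, NM_001111044, was 14.1 ± 1.17 and 13.8 ± 3.50 RPKM.

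Of the 34 serpins outside the set, 6 reached the minimum for testing, and limma with Benjamini-Hochberg adjustment called 1 higher and 1 lower in the knock-out. Serpina1b, an alpha-1 antitrypsin gene, was 0.487, 0.455, 0.238, 0.435 and 0.303 RPKM in knock-out muscle and 1.73, 1.71, 0.695 and 1.93 in wild-type muscle. All knock-out libraries were lower, and it fell by 1.68 on the log2 scale (SE 0.27, limma adjusted p = 0.00034). Its knock-out mean of 0.383 RPKM was under the minimum for testing, so it passed that minimum through the wild-type libraries, and the difference was -0.83 with a pseudocount of 1. Serpine2, protease nexin-1, an inhibitor of thrombin and plasminogen activators, was 51.3, 47.5, 48.7, 47.9 and 52.2 RPKM in knock-out muscle and 40.0, 41.4, 40.9 and 42.3 in wild-type muscle. It was higher in all knock-out libraries by 0.27 on the log2 scale (SE 0.05, limma adjusted p = 0.00064). After centring, the difference of Serpine2 was 0.14 and no longer passed (limma adjusted p = 0.058).

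The other 4 were not called, and 3 of them are described here. Serpinf1, a serpin without inhibitor activity known as pigment epithelium-derived factor, was 24.2 ± 4.08 and 21.5 ± 3.37 RPKM (SD, n = 5 and 4), a difference of 0.16 (SE 0.13, limma adjusted p = 0.30). Serpinb1c differed by 0.29 (SE 0.16, limma adjusted p = 0.14). Serpina3c differed by -0.24 (SE 0.15, limma adjusted p = 0.19), and it passed as lower without knock-out library 4 (-0.34, limma adjusted p = 0.041), with centring (-0.37) and with quantile normalization (-0.38).

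**Figure D3:**
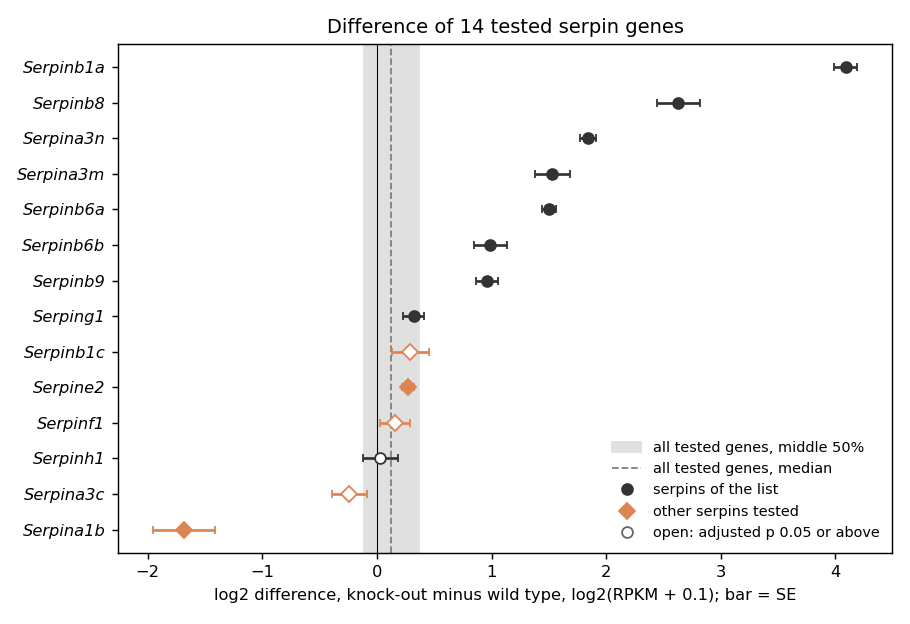
Difference between knock-out and wild type on the log2(RPKM + 0.1) scale for 14 of the 15 serpins that were tested, with SE bars from limma. Circles are the 9 members and diamonds the other serpins, open symbols did not pass, the dashed line at 0.12 is the median of all tested genes and the grey band holds their middle 50%. Serpinb1a lies highest at 4.09 and Serpina1b lowest at -1.68.

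A further 28 serpins stayed below the minimum, at most 0.655 RPKM in any library. Among them Serpina3f, Serpina3g and Serpina3k, neighbours of Serpina3n, were above the wild type in every knock-out library, Serpina3f at 0.435 to 0.633 against 0.0992 to 0.239 RPKM. Serpina3k holds 257 of the shared 50-base windows of Serpina3m, so its value too is uncertain. Serpina1e and Serpinb6e were below it in every knock-out library. Serpinb6e was listed at 0 in all 5 and at 0.014 to 0.0207 RPKM in wild-type muscle. Those values are near the floor, so the listed 0 does not show a loss. These 5 genes were named after their values were seen.

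The genes sit in clusters. In the order of genes in the RefSeq table, Serpinb1a, Serpinb6b, Serpinb9 and Serpinb6a belong to a run of 16 serpin genes. Of these 9 had values here and 5 reached 0.5 RPKM on average, the fifth being Serpinb1c. Serpina3n and Serpina3m belong to a run of 23, in which 16 had values and 4 reached that level, the others being Serpina1b and Serpina3c. Serpinb8 belongs to a run of 12, in which 6 had values and Serpinb8 alone reached that level. No level is known here for the remaining genes of these runs. Serping1 and Serpinh1 have no serpin beside them. Within the run of 23, Serpina3n and Serpina3m, which lie side by side, were 1.84 and 1.53 higher on the log2 scale. Serpina1b, farther along that run, was 1.68 lower (a log2 difference of -1.68), and Serpina3c (-0.24) was not called. In the run of 16, the 5 genes at that level had positive differences, from 0.29 for Serpinb1c, which was not called, to 4.09 for Serpinb1a.

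The promoters of Serpinb6a and Serpinb8 are shown as those of the most abundant member and of a member with a low wild-type level. Each is the 250 bases before the transcription start in RefSeq on GRCm38.p6, with matched motifs in capitals. Serpinb6a is at chr13:34002795-34003044 on the minus strand, the upstream one of its 2 starts in the table, with a STAT match (TTCNNNGAA) at -77. Serpinb8 is at chr1:107589756-107590005 on the plus strand, with an AP-1 match (TGANTCA) at -23 and a metal response core match (TGCNCNC) at -238.
Serpinb6a: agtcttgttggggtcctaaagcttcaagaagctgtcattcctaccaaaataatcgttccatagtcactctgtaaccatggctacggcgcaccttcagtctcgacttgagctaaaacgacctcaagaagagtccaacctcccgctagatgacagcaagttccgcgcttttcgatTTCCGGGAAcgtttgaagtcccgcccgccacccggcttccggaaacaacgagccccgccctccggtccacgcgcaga
Serpinb8: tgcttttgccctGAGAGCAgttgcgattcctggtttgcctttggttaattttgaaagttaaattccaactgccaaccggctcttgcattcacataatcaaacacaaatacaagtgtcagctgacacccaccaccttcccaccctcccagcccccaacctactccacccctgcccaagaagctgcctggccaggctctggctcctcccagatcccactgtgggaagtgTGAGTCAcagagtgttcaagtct
The table held 7 starts of 6 members, Serpinb8, Serpinh1, Serpina3n, Serpinb6b, Serpinb9 and Serpinb6a. On both strands, 1 of the 7 had the STAT letters against 7.02% of 32841 promoters, 1 had the AP-1 letters against 6.75%, and 3 had the metal response core against 44.4%. The heat shock letters GAANNTTC (6.70% of promoters) and the letters CACGTG of the lysosomal gene element (6.02%) were in 0 of the 7. No matches in these promoters overlapped. A match is a run of letters and shows no binding.

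Several proteases were then measured. Of 31 proteases fixed as a list, 13 were tested. Limma called 6 higher and 0 lower in the knock-out (median log2 difference 0.26, against 0.12 for all tested genes), and 6 higher and 1 lower after centring. The 6 called without centring were Ctss, Ctsb, Ctsl, Ctsh, Ctsk and Plau, none of which is named here as a target of a member. The counts of this and the following lists stand beside shares over all tested genes of 37.0% higher and 14.8% lower, or 25.1% and 25.0% after centring. The lysosomal cathepsins led: Ctss rose from 1.82 ± 0.545 to 6.38 ± 1.56 RPKM (1.77 on the log2 scale, SE 0.20, limma adjusted p = 2.4e-05). Ctsb was 77.8 ± 3.06 RPKM in knock-out muscle and 43.8 ± 4.17 in wild-type muscle (0.83, SE 0.07, limma adjusted p = 1.3e-06). Ctsl was 36.0 ± 2.95 and 22.9 ± 1.56 RPKM (0.65, SE 0.07, limma adjusted p = 1.5e-05). Plau, the urokinase-type plasminogen activator that Serpine2 inhibits, was 10.6 ± 1.06 and 6.97 ± 1.58 RPKM (0.62, SE 0.13, limma adjusted p = 0.0022).

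The classical partners of several members were near the floor or did not pass. Neutrophil elastase (Elane) was at most 0.0504 RPKM and proteinase 3 (Prtn3) at most 0.232 in any library, both targets of Serpinb1a. Granzyme B (Gzmb), the target of Serpinb9, was at most 0.0296 RPKM, and granzyme A (Gzma) at most 0.0881. Furin was 6.80 ± 0.436 RPKM in knock-out muscle and 6.55 ± 0.412 in wild-type muscle (0.05, SE 0.07, limma adjusted p = 0.55). The C1 proteases that Serping1 blocks gave C1ra at 4.60 ± 0.721 and 3.83 ± 0.608 RPKM (0.26, SE 0.13, limma adjusted p = 0.11) and C1s at 9.15 ± 1.08 and 8.55 ± 1.38 RPKM (0.10, SE 0.11, limma adjusted p = 0.47). Contact factor F12 was at most 0.0141 RPKM. Ctsg, Gzmk and Klkb1 were on the list but had no values under these symbols, so their levels are not known here.

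For Serpinh1 the partners are collagens and the enzymes that fold them. Of 23 tested genes of that list, limma called 12 higher and 2 lower (median 0.32), and 10 higher and 4 lower after centring. Of the 12 higher genes 9 encode enzymes or chaperones and the other three collagen chains. P4hb, the disulfide isomerase subunit of prolyl hydroxylase, was 74.6 ± 3.57 RPKM in knock-out muscle and 48.5 ± 5.33 in wild-type muscle (0.63, SE 0.07, limma adjusted p = 2.7e-05). Plod1, a lysyl hydroxylase, was 9.72 ± 0.805 and 6.31 ± 0.652 RPKM (0.62, SE 0.08, limma adjusted p = 9.0e-05), and Glt25d1, a collagen galactosyltransferase, 16.4 ± 0.667 and 12.3 ± 0.707 RPKM (0.42, SE 0.06, limma adjusted p = 7.4e-05). P4ha2, a catalytic subunit of prolyl hydroxylase, fell by 0.70 (SE 0.08, limma adjusted p = 1.7e-05). Col4a2 was lower by a small margin (-0.36, SE 0.14, limma adjusted p = 0.048) and lost its call without any of knock-out libraries 1, 3 and 5 and wild-type libraries 3 and 4 (-0.34 to -0.28). It also lost its call with no filter (limma adjusted p = 0.10), without limma's trend (0.067) and with the highest transcript in place of the sum (0.054).

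The fibrillar chains of that list did not pass. Col5a3, a collagen gene outside the list that is named below for its likeness to Serping1, was called higher by limma (1.39). Col1a1 was 16.5 ± 4.69 and 13.3 ± 2.01 RPKM (0.28, SE 0.18, limma adjusted p = 0.20) and Col1a2 29.7 ± 6.26 and 23.9 ± 3.52 RPKM (0.30, SE 0.14, limma adjusted p = 0.095). Col3a1 was 33.8 ± 11.5 and 23.8 ± 6.01 RPKM (0.48, SE 0.23, limma adjusted p = 0.11), and without knock-out library 1 it passed at 0.63 (limma adjusted p = 0.034).

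**Figure D4:**
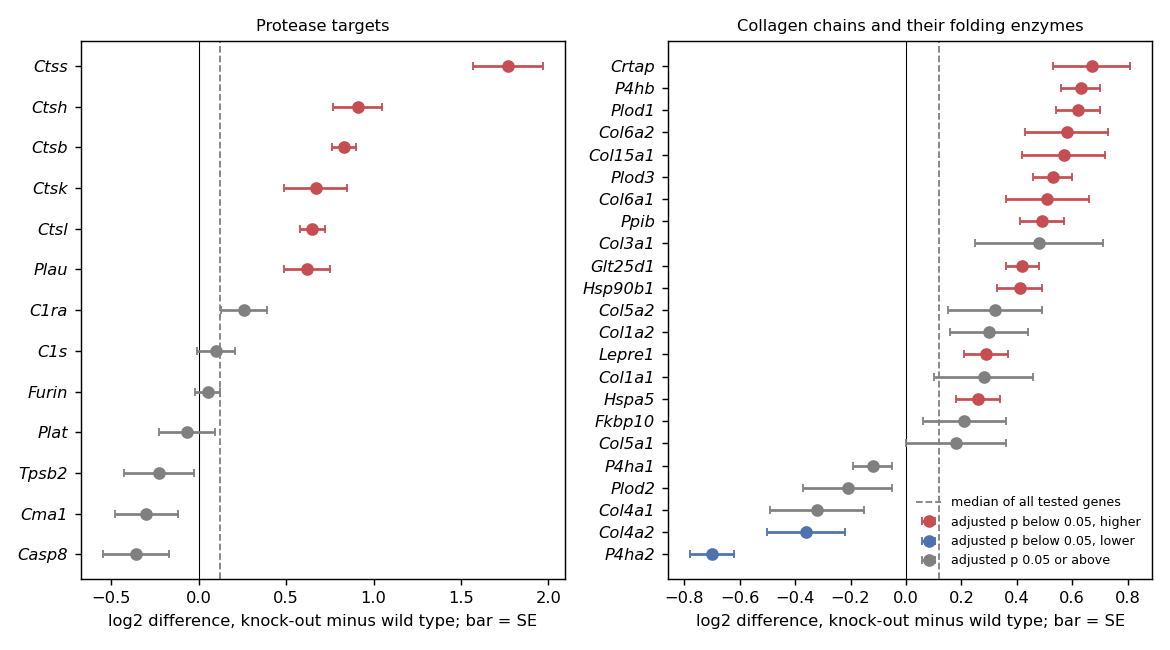
Difference between knock-out and wild type on the log2(RPKM + 0.1) scale, with SE bars from limma. Tested genes of the protease list are on the left, and tested collagen chains and folding enzymes on the right. Colours give the call, and the dashed line at 0.12 is the median of all tested genes. Cathepsins lie highest on the left, with Ctss at 1.77, and P4ha2 lies lowest on the right at -0.70.

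Complement genes, which bear on Serping1, gave 7 higher and 2 lower of 18 tested (median 0.37), and 6 and 4 after centring, shares near those over all tested genes. Cd59a, which blocks the membrane attack complex, was 9.91 ± 0.323 RPKM in knock-out muscle and 5.65 ± 0.585 in wild-type muscle (0.80, SE 0.07, limma adjusted p = 3.2e-06). Cd55, which breaks up C3 convertases, was 43.2 ± 4.11 and 24.5 ± 2.33 RPKM (0.81, SE 0.08, limma adjusted p = 9.7e-06), and C1qb, a chain of the recognition molecule C1q, 11.7 ± 2.79 and 4.95 ± 0.563 RPKM (1.21, SE 0.14, limma adjusted p = 3.6e-05). Clusterin (Clu) fell by 0.91 (SE 0.20, limma adjusted p = 0.0024). C3 was lower at 0.044 (limma adjusted p; -0.47, SE 0.18), and lost its call without wild-type library 4 (-0.34, limma adjusted p = 0.13) and without 6 of the other 8 libraries in turn, as well as with no filter (adjusted p = 0.10), without limma's trend (0.062) and with the highest transcript (0.050).

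Acute-phase and glucocorticoid response genes, the programme to which Serpina3n belongs in liver, went both ways, with 7 higher and 6 lower of 21 tested (median 0.06), and 7 and 8 after centring. Timp1, a metalloproteinase inhibitor, rose from 0.303 ± 0.143 to 11.3 ± 2.05 RPKM (4.87, SE 0.20, limma adjusted p = 6.9e-09). Its wild-type mean was under the minimum for testing, which it passed through the knock-out libraries, and the difference was 3.23 with a pseudocount of 1 and 5.26 with 0.01. Stat3, the transcription factor of interleukin-6 signalling, was 18.4 ± 0.530 and 8.24 ± 0.465 RPKM (1.15, SE 0.05, limma adjusted p = 1.9e-08), and the receptor Tnfrsf1a 9.86 ± 0.456 and 5.07 ± 0.223 RPKM (0.95, SE 0.06, limma adjusted p = 1.5e-07). Jak2, the kinase upstream of STAT factors, fell by 0.75 (SE 0.09, limma adjusted p = 2.6e-05). The interleukin-1 receptor Il1r1 fell by 1.02 (SE 0.15, limma adjusted p = 1.8e-04) and Orm1, an acute-phase glycoprotein, by 1.22 (SE 0.21, limma adjusted p = 4.9e-04). The wild-type libraries split in some genes of this list as they did for Serpinh1. Socs3, a feedback inhibitor of cytokine signalling, was 5.97, 7.14, 0.602 and 0.577 RPKM in wild-type libraries 1 to 4, and Cebpd, a transcription factor of the acute phase, 21.7, 20.8, 4.97 and 5.41 RPKM. Both were not called and were named after their values were seen. The metallothionein Mt2, also named after its values were seen, was called higher and was 27.5, 66.6, 6.12 and 7.01 RPKM in those libraries. Whether this split bears on the calls of the list was not tested.

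Protease inhibitors outside the serpin fold gave 7 higher and 1 lower of 15 tested (median 0.44), and 7 and 3 after centring. Beside Timp1, which stands in both lists, Cst6, a cystatin that inhibits cathepsins and legumain, rose from 2.19 ± 0.137 to 9.29 ± 0.961 RPKM (2.03, SE 0.08, limma adjusted p = 7.2e-09). Fetub, a fetuin of the cystatin superfamily, rose from 0.0682 ± 0.0425 to 4.55 ± 1.22 RPKM (4.78, SE 0.23, limma adjusted p = 2.4e-08). Fetub too passed the minimum for testing through the knock-out libraries alone, and its difference was 2.35 with a pseudocount of 1 and 6.01 with 0.01. Timp4 fell by 0.68 (SE 0.17, limma adjusted p = 0.005).

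A list of serpin cofactors and clearance receptors, which also holds coagulation receptors such as Procr and F3, gave 6 higher and 3 lower of 13 tested (median 0.06). After centring it gave 5 and 4. Gpc1, a heparan sulfate proteoglycan, was 99.2 ± 6.87 RPKM in knock-out muscle and 61.0 ± 3.24 in wild-type muscle (0.70, SE 0.06, limma adjusted p = 2.9e-06). Thrombomodulin (Thbd) was 10.1 ± 1.40 and 3.87 ± 1.10 RPKM (1.38, SE 0.15, limma adjusted p = 1.9e-05), and Sdc2 5.38 ± 0.639 and 3.47 ± 0.652 RPKM (0.63, SE 0.12, limma adjusted p = 0.0013). The lipoprotein receptor Vldlr fell by 0.43 (SE 0.07, limma adjusted p = 3.4e-04), and the protein C receptor Procr by 0.57 (SE 0.16, limma adjusted p = 0.012). Tissue factor (F3) was -0.54 (SE 0.20, limma adjusted p = 0.043) and lost its call without 8 of the 9 libraries in turn, all but wild-type library 3, and with no filter (adjusted p = 0.097) and without limma's trend (0.054).

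The summed macrophage markers were higher in every knock-out library, while the sums of slow fibre, fibroblast and endothelial markers overlapped between genotypes. Of 13 macrophage markers 10 were tested and 9 were called higher by limma, with a summed level of 63.8 to 108 RPKM in knock-out muscle and 26.5 to 35.2 in wild-type muscle, and Cd68 at 5.63 to 8.01 and 0.523 to 1.17 RPKM. Among the 9, Emr1, Mpeg1 and Ms4a7 had wild-type means of 0.368, 0.382 and 0.303 RPKM. These means were under the minimum for testing, which the genes passed through the knock-out libraries. Fibroblast markers summed to 316 to 421 and 222 to 318 RPKM (3 higher and 2 lower of 10, and 3 and 3 after centring). Endothelial markers summed to 28.9 to 51.5 and 39.5 to 64.2 RPKM (0 higher and 5 lower of 10, and 0 and 7 after centring). Slow fibre markers summed to 187 to 446 and 55 to 193 RPKM (7 of 7 higher, and 6 of 7 after centring).

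Neutrophil markers stayed low, 9 measured genes summing to 0.541 to 0.927 RPKM in knock-out muscle and 0.474 to 2.15 in wild-type muscle, with none reaching the minimum for testing. T and NK cell markers summed to 1.37 to 1.91 and 0.166 to 1.00 RPKM, and Cd3e was the 1 of 10 tested. The wild-type mean of Cd3e, 0.409 RPKM, was under the minimum, which it passed through the knock-out libraries. Cd3e carried most of that sum, at 1.13 to 1.61 RPKM in knock-out muscle and 0.0373, 0.0551, 0.711 and 0.832 in wild-type libraries 1 to 4, while Cd3d was at most 0.0349 RPKM, Cd3g at most 0.0756 and Cd8a at most 0.0181. Hepatocyte markers, the usual source of clade A serpins, summed to 7.27 to 14.0 and 4.59 to 16.6 RPKM. Nearly all of this was Cyp2e1 (6.87 to 13.5 and 4.31 to 16.1 RPKM), while Alb was at most 0.151 RPKM, Apoa1 at most 0.0282 and Ahsg at most 0.0427. No marker of these lists was at 0 in every library. The part of these cell types in the serpin levels was not tested.

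Within a genotype the members varied to different degrees. The coefficient of variation in the knock-out ran from 6.36% for Serpina3n to 17.2% for Serpinb6b, and in wild-type muscle from 4.92% for Serpinb6a to 51.9% for Serpinb8. Serpinh1 had 10.4% and 25.9%, the latter from the split of the wild-type libraries.

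With the genotype means removed, the members showed little common variation over the 9 libraries. Of 36 pairs, 2 had a Pearson r of at least 0.7, 11 were below 0, and the median was 0.23. The 2 were Serpina3n with Serpina3m (r = 0.82, Spearman rho = 0.78) and Serpinb1a with Serpina3n (r = 0.71, rho = 0.65), and without the 2 libraries farthest from the median these fell to 0.47 and 0.24, so they rest on those libraries. The lowest pair was Serpinb9 with Serpinh1 (r = -0.70, rho = -0.60, and -0.45 without 2 libraries). Serping1 with Serpinf1 had r = 0.86 (rho = 0.88, and 0.90 without 2 libraries). Serpinb1a with the summed macrophage markers had r = 0.82 (rho = 0.80, and 0.92), and Serping1 with the summed fibroblast markers r = 0.82 (rho = 0.82, and 0.98). Each sum leaned on a single gene. In knock-out muscle Lyz2 was 30.2 to 55.6 RPKM of a macrophage sum of 63.8 to 108. Dcn was 166 to 212 RPKM of a fibroblast sum of 316 to 421. Serpinb6b with the fast fibre markers had r = -0.80 (rho = -0.85, and -0.65). These were picked for size out of 55 pairs of serpins and 45 pairs of a member with a marker list, share library and depth, and carry no test, since neither genotype has 6 libraries of its own.

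**Figure D5:**
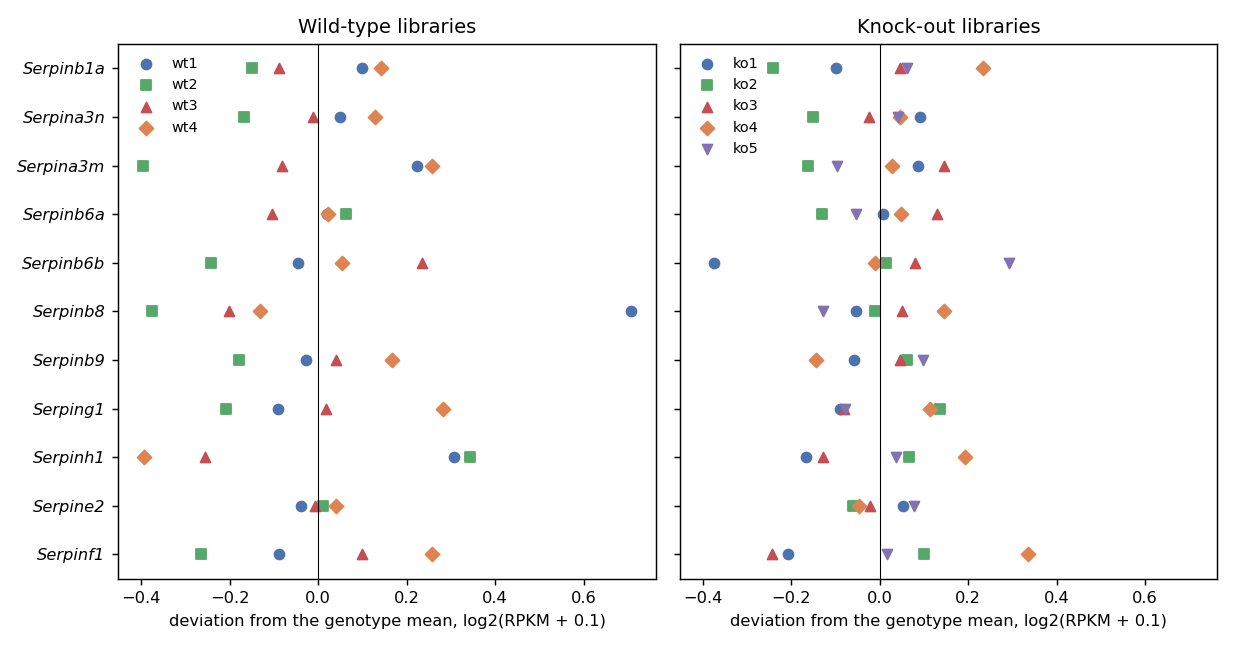
Deviation of each library from its genotype mean on the log2(RPKM + 0.1) scale for the 9 members with Serpine2 and Serpinf1, 11 serpins in all, wild type (n = 4) on the left and knock-out (n = 5) on the right, 1 marker shape per library. In wild-type muscle, Serpinh1 splits into libraries 1 and 2 (21.3 and 21.8 RPKM) and libraries 3 and 4 (14.3 and 13 RPKM), and library 1 stands apart for Serpinb8 (0.476 RPKM).

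The genes most like each member by the same measure, among 5258 genes of at least 5 RPKM over 9 libraries, were as follows. For Serpinb1a they were Serinc3 (r = 0.96) and the MHC class II gene H2-Aa (0.94), and for Serpinb6a Bzw1 (0.94) and Gpbp1 (0.93). For Serpinb6b they were Lrpprc (0.97) and Slmap (0.96), for Serpinb8 Fabp3 (0.93) and Gtf2e1 (0.93), and for Serpinb9 Abcc5 (0.95) and Nudt4 (0.93). For Serpina3n they were Acyp1 (0.90) and Tomm7 (0.88), and for Serpina3m Mat2b (0.92) and Nono (0.91). For Serping1 they were Gm9790 (0.97) and the collagen gene Col5a3 (0.95), and for Serpinh1 Ccnl1 (0.95) and Mbd2 (0.95). With so few libraries and so many genes, values of this size are the top of a long list and carry no test.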

How the data were processed

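RNA sequencing of white gastrocnemius gave 9 libraries (Trizol RNA, TruSeq kit, per the labels' protocols). The authors deposited RPKM values per RefSeq transcript and library. Per the submitters' processing notes the build was mm9 and Partek 6.6, Bowtie 0.12.7.0 and TopHat 1.3.2 were used. The sources used here give no role for each tool, no strand setting and no filter. The 23665 transcripts were summed to 18062 genes by symbol. Wild-type columns carry no age, so they formed 1 group.

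Genes with a mean of at least 0.5 RPKM (11032) were fitted by limma 3.58.1 (R 4.3.3) to log2 values of RPKM + 0.1 (eBayes with trend, two-sided, Benjamini-Hochberg, threshold 0.05), which understates changes of low genes. The step was tested on simulated data in which few genes changed, up or down alike. Here 51.8% of tested genes were called and more were higher than lower, so that test does not check the calls under this setting. Depth was read from low values, of which 72.1% to 75.8% lay within 0.1 of a whole read, so reads are estimates and cover counting error only. Named genes are the members, Gaa, the other tested serpins, 3 genes per direction and list with the smallest p, known partners, and the 2 genes most like each member. Of the other tested serpins, 1 is counted and not otherwise reported here. The members and lists were chosen with earlier results of these data known. Other pseudocounts, filters, centring, quantile normalization and leaving out libraries were tried. Sequences are from RefSeq and GENCODE on GRCm38, not the authors' build.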

Additional observations from a re-analysis of the deposited data

Results flagged for a closer look

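Among 70 genes in 2 groups each, 5 of 140 groups held a library whose gap to its nearest neighbour was large for the range of the group, and chance alone marks about 5% of groups. Serpinb8 in wild-type library 1 was 0.476 RPKM, where the other 3 wild-type libraries were 0.172 to 0.221. Cd55 in wild-type library 4 was 28.0 RPKM, with the others at 23.2 to 23.8. Thbd in wild-type library 2 was 5.51 RPKM, with the others at 3.22 to 3.39. Acyp1 in wild-type library 2 was 12.6 RPKM, with the others at 14.6 to 15.0. Col1a1 in wild-type library 2 was 10.3 RPKM, with the others at 13.9 to 14.5.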

How the results depend on the processing

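In the 17 alternatives run, limma called 8 of 9 members higher, except 7 with a minimum of 1 RPKM (8 members tested) and 7 with centring and with quantile normalization, where Serping1 was lost (0.14 on the log2 scale with quantile normalization). Over all genes, higher calls were 3799 of 9706 at that minimum, 2769 of 11032 with centring and 2644 of 11032 with quantile normalization. They were 4454 of 18062 with no filter, 3806 of 10849 with the highest transcript and 3545 to 4083 of 11032 otherwise. The members were chosen by this contrast, so their counts support nothing beyond that choice. The log2 difference of Serpinb1a ranged from 3.32 to 4.21, Serpinb8 from 1.28 (pseudocount 1) to 3.02 (pseudocount 0.01), Serpina3m from 0.75 to 1.73 and Serpinb6a from 1.20 to 1.64.

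Over all genes, the 4081 higher calls became 2644 with quantile normalization, and the 1632 lower calls became 2758 with centring and 3056 with quantile normalization. Serpin calls were 10 of 15 tested and became 18 of 43 tested with no filter. Over all genes, calls were 5713 of 11032 tested and became 6272 of 18062 with no filter. Lower serpin calls by limma, 1 as reported, were 6 with no filter, 0 at a minimum of 1 RPKM, 2 with centring, 2 with quantile normalization and 1 to 2 when each library was left out (2 without knock-out library 4, which adds Serpina3c). Lower calls in the pathway lists went from 14 to 23 with centring and to 23 with quantile normalization. The cause was not tested.

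No paired analysis was possible because the wild-type columns carry no replicate number of the labels. Depth limits the wild-type values of Serpinb8 and Serpina3m.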
